A study of Homo sapiens with 3 samples.

Results

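The Sprouty and SPRED genes examined here were SPRY2, SPRY4, SPRED1 and SPRED2, chosen by symbol with earlier results of these data known. All 4 were present among the 15625 genes of the deposited expression table. The table holds RNA-seq values of HCT116, an established human cell line grown out of a colorectal carcinoma. Cells given an shRNA that targets circRAPGEF5, a circular RNA formed from the RAPGEF5 gene, make up 2 libraries (sh_circRAPGEF5_1 and sh_circRAPGEF5_2, below knockdown libraries 1 and 2). Cells given a control shRNA make up 1 library (sh_control). The labels give every library the genotype "MT" without explaining it, and harvest after 36 or 48 h without saying which library had which time. Whether libraries 1 and 2 come from different hairpins or from independent cultures is not stated, so the spread behind any p-value below, which comes from these 2 libraries alone, may be technical. The series title places the study in RAS/RAF/MEK/ERK signaling.

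Sprouty and SPRED proteins are inhibitors of receptor tyrosine kinase signalling. Growth factor receptors activate RAS, which switches on the RAF, MEK and ERK kinases in turn, and active ERK raises transcription of several of its own inhibitors. Sprouty proteins act near the adaptor GRB2 and RAF and are induced by ERK as a classical negative feedback. SPRED proteins carry an EVH1 domain with which they recruit neurofibromin, the RAS GTPase-activating protein encoded by NF1, to the membrane. Both families share a cysteine-rich Sprouty domain at the C terminus.

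Values are FPKM, fragments scaled to gene length and to the size of the library, as the authors computed them, so levels can be set side by side between genes per length. Differences are log2(FPKM + 1) in a knockdown library minus the control, a scale that understates the change of weakly expressed genes. The FPKM values of the 3 libraries stood in whole-number ratios in 100% of genes, and the lowest read numbers compatible with them added up to 14832142 and 15758794 in knockdown libraries 1 and 2 and 14632390 in the control. These reads are a lower limit per gene. The 95% intervals below (exact Poisson for a level, exact Clopper-Pearson for a ratio) cover counting error only. The control is 1 library and has no SD.

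RAPGEF5 itself, which encodes an activator of RAP GTPases and lies on chromosome 7 (22118238 to 22357144), was at 1.33 and 2.73 FPKM in knockdown libraries 1 and 2, against 1.98 FPKM in the control. This is a value of the whole gene and does not check the knockdown of the circular RNA. All 5 epithelial markers listed for HCT116 were detected, summing to 2548 and 3876 FPKM in the knockdown libraries and 2281 FPKM in the control. Higher in both knockdown libraries were 3 of the 5, and 1 was lower in both. EPCAM was at 170.0 and 191 FPKM in the knockdown libraries and 176 FPKM in the control. CDH1, the lower one, was at 20.3 and 26.7 FPKM against 33.1 FPKM, and KRT19, a higher one, at 622 and 1079 FPKM against 563 FPKM. Of 7 fibroblast markers 3 were in the table, summing to 4.71 and 8.49 FPKM in the knockdown libraries and 14.0 FPKM in the control, nearly all of it COL1A1. Of 7 leukocyte markers 6 were in the table, summing to 5.30 and 11.0 FPKM in the knockdown libraries and 5.60 FPKM in the control, and 3 of 5 endothelial markers summed to 11.2, 15.6 and 13.5 FPKM in the same order. The leukocyte marker PTPRC was at 0, 0.00901 and 0 FPKM in knockdown library 1, knockdown library 2 and the control. Of 3 leukocyte markers tested, 1 was higher in both knockdown libraries and 1 lower in both. CD68, the higher one, was at 3.6 and 7.5 FPKM in the knockdown libraries and 1.3 FPKM in the control. CORO1A, the lower one, was at 1.34 and 0.898 FPKM against 2.59 FPKM. Replication-dependent histones, a list that can move with RNA quality, summed to 127 and 126 FPKM in the knockdown libraries and 68.6 FPKM in the control. Of 6 histone genes tested, 4 were higher in both knockdown libraries, as were 31.7% of all genes tested. Single histone genes differed between the knockdown libraries under their nearly equal sums. H2BC12 was at 31.3 and 76.1 FPKM in the knockdown libraries and 40.0 FPKM in the control, and H2AC6 at 40.8 and 13.3 FPKM against 9.34 FPKM. The part of these lists in the results below was not tested. Histone genes form a family of near-identical copies, so their single values are uncertain.

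Promoter sequence is shown for the 3 members whose windows hold bases outside annotated exons and bear on the search described next. RefSeq gives 7 promoter windows for the 4 members, each of 250 bases before the transcription start and 50 after. Bases in exons of GENCODE 29 and beyond the first transcribed base are not shown, which left nothing to show for SPRED1. Capitals mark matches to an ETS core (CCGGAA, both strands) or an AP-1 core (TGANTCA, both strands), the motifs of transcription factor families that ERK is known to activate. The sequences run 5′ to 3′ on the gene's strand, in build GRCh38.p14.
SPRY4 (chr5:142324418-142324497, minus strand): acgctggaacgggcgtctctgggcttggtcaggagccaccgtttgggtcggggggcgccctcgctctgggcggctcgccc
SPRY2 (chr13:80341126-80341376, minus strand): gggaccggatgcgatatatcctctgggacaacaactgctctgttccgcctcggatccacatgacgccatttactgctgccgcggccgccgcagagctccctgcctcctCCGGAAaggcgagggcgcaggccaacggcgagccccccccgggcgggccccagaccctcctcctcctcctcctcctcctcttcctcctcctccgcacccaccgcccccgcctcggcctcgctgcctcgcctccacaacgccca
SPRED2 (chr2:65366778-65367028, minus strand): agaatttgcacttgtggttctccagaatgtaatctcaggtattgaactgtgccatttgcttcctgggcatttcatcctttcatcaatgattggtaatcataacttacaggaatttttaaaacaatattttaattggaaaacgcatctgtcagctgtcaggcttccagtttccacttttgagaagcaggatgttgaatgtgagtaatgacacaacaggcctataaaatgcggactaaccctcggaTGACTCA

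The single SPRY4 window, of which the stretch above is the part farthest from the start, held neither motif in its 300 bases. It lies inside the annotated gene, downstream of the gene's 5′ end at 142326455. No window at that end was searched. The outermost of 3 SPRY2 windows held 1 ETS core, from position -142 relative to the transcription start. The inner of 2 SPRED2 windows held 1 AP-1 core across its start, from position -6, and another, TGAATCA, from position 35 of the transcript. The other SPRED2 window and the SPRED1 window held neither motif. Of all 35116 windows in the table, 17.2% held the ETS core and 7.71% the AP-1 core. A match describes letters in a window and is not evidence of a bound factor, and a window without one says only that these letters are absent there.

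SPRY4 was the member with the largest difference between knockdown and control. It encodes a Sprouty protein that restrains RAS-ERK signalling, and lies on chromosome 5 (GRCh38, 142310427 to 142326455, minus strand). Its level was 39.5 FPKM in knockdown library 1 and 24.4 FPKM in knockdown library 2, against 5.09 FPKM in the control. Both knockdown libraries lay far above the control, and library 1 lay above library 2. The reads behind these values were at least 2334, 1529 and 297, in the same order. The FPKM ratio to the control was 7.75 in knockdown library 1 (95% interval 6.87 to 8.78) and 4.79 in knockdown library 2 (4.23 to 5.44). Between the knockdown libraries the ratio was 1.62 (1.52 to 1.73), so they differed by more than counting error. In a culture measured in bulk, more cells expressing a gene and more RNA per cell cannot be told apart.

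The knockdown mean of SPRY4 was 31.9 ± 10.7 FPKM (SD, n = 2), a mean log2 difference of 2.40 ± 0.44 (SE; 95% interval 1.44 to 3.35). The difference did not pass limma's test across all genes, with an unadjusted p of 0.000143 and a limma adjusted p of 0.173 over 11216 genes. Ordered downward from the most positive mean difference, SPRY4 was at rank 5 of the genes tested, and by the smaller of its 2 differences at rank 8 among genes higher in both. In level it passed 84.7% and 75.2% of tested genes in knockdown libraries 1 and 2, against 26.4% in the control. GENCODE 29 places an antisense gene, SPRY4-AS1, on the opposite strand. The gene bodies overlap by 1163 bases and their exons by 0 bases. The library kit marks strand, but the strand setting of the counting is not given in the sources used here, so a contribution of antisense reads was not tested.

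**Figure D1:**
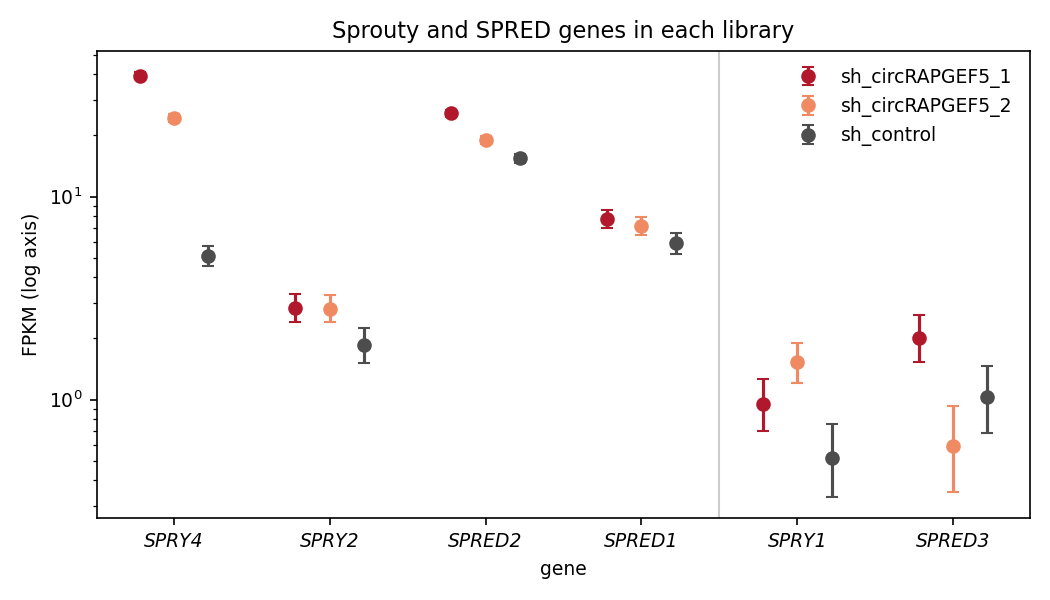
FPKM (log axis) of the 4 members, left of the vertical line, and of SPRY1 and SPRED3, right of it, in knockdown library 1, knockdown library 2 and the control library; bars are 95% Poisson intervals of the reads behind each value. SPRY4 stood at 39.5 and 24.4 FPKM in the knockdown libraries against 5.09 FPKM in the control, while SPRED1 lay between 5.90 and 7.77 FPKM in all 3 libraries.

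SPRY2, the other Sprouty member, was weakly expressed. It encodes an inhibitor that binds GRB2 and the ubiquitin ligase CBL, and lies on chromosome 13 (80335976 to 80340951, minus strand). It was at 2.83 and 2.80 FPKM in knockdown libraries 1 and 2, against 1.86 FPKM in the control. The knockdown libraries were nearly equal, with at least 162 and 170 reads, and both were above the control, with at least 105 reads. The FPKM ratios to the control were 1.52 (95% interval 1.18 to 1.96) and 1.51 (1.17 to 1.94). The mean log2 difference was 0.42 ± 0.44 (SE; 95% interval -0.54 to 1.37), with a limma adjusted p of 0.892. Between the knockdown libraries the ratio was 1.01 (0.81 to 1.26). Even with its higher level, SPRY2 lay above only 17.4% and 16.0% of tested genes in the knockdown libraries and 5.98% in the control.

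SPRED2 was the most highly expressed member in the control. It encodes an EVH1-domain inhibitor of RAS activation and lies on chromosome 2 (65310851 to 65432637, minus strand). It was at 25.7 and 18.9 FPKM in knockdown libraries 1 and 2, against 15.4 FPKM in the control, from at least 2626, 2054 and 1559 reads. Knockdown library 2 lay nearer to the control than to knockdown library 1. The FPKM ratios to the control were 1.66 (95% interval 1.56 to 1.77) in library 1 and 1.23 (1.15 to 1.31) in library 2. The ratio of library 1 to library 2 was 1.36 (1.28 to 1.44), so they differed by more than counting error. The mean log2 difference was 0.49 ± 0.41 (SE; 95% interval -0.41 to 1.39), with a limma adjusted p of 0.861.

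SPRED1, whose loss-of-function mutations cause Legius syndrome, differed least. The gene lies on chromosome 15 (38252326 to 38357249, plus strand). Its level was 7.77 and 7.15 FPKM in knockdown libraries 1 and 2, against 5.90 FPKM in the control. The reads were at least 380, 371 and 285, and the FPKM ratios to the control were 1.32 (95% interval 1.13 to 1.54) and 1.21 (1.04 to 1.42). All 3 libraries lay close together, with both knockdown libraries above the control. The mean log2 difference was 0.29 ± 0.43 (SE; 95% interval -0.64 to 1.22), with a limma adjusted p of 0.931.

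All 4 members were thus higher in both knockdown libraries, as were 31.7% of the genes tested. At least 2-fold higher in both was 1 member, SPRY4, as were 1.21% of the genes tested. None of the 4 passed limma's adjusted threshold of 0.05, which 0.0178% of tested genes passed as higher (2 of 11216), and 1 of the 4 had an unadjusted limma p under that value, as did 7.07% of tested genes (793 of 11216, in either direction). The median mean log2 difference was 0.45 over the members and -0.05 over all genes tested. Because both differences share the control library, a low value in that library alone would place a gene above it in both. With 3 libraries, an exact two-sided permutation test allows 3 splits, and its smallest p is 0.333. The exact permutation test gave p = 0.333 for SPRY4, SPRY2 and SPRED1, and p = 0.667 for SPRED2, where knockdown library 1 stood apart further than the control did.

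**Figure D2:**
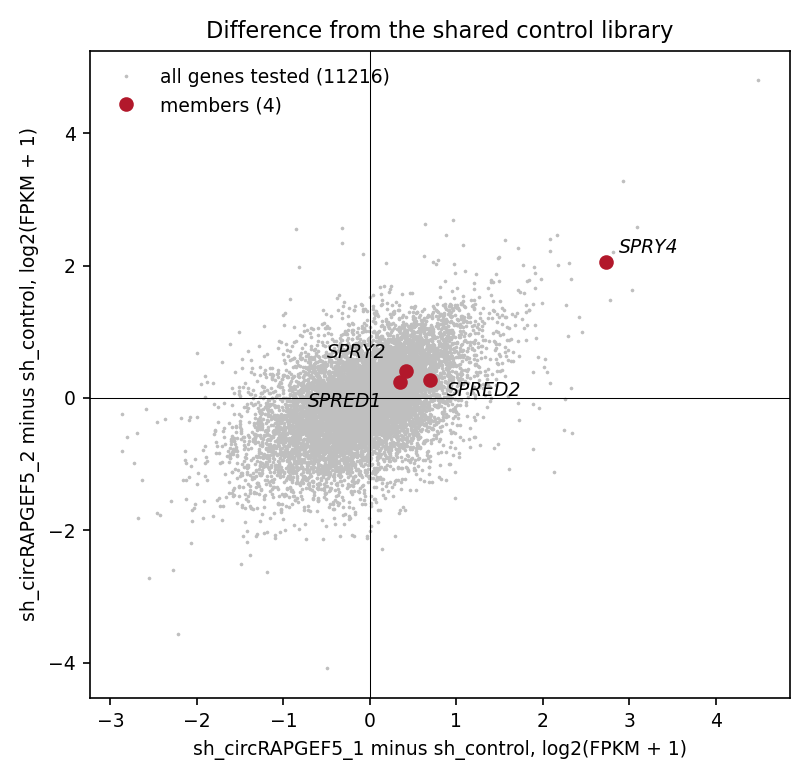
Difference from the control library in log2(FPKM + 1) for knockdown library 1 (horizontal axis) and knockdown library 2 (vertical axis), with all 11216 genes tested in grey and the 4 members in red. SPRY4, at 2.73 and 2.06, lies far out on the upper right, while SPRY2, SPRED1 and SPRED2 lie inside the cloud of all genes; both axes share the control library.

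The order of the members differed between knockdown and control. In the control SPRED2 led, followed by SPRED1 at 5.90 FPKM (95% interval 5.24 to 6.63) and SPRY4 at 5.09 FPKM (4.53 to 5.70), whose intervals overlap, and then by SPRY2. In both knockdown libraries SPRY4 led, followed by SPRED2, SPRED1 and SPRY2. The counting intervals of SPRY4 and SPRED2 did not overlap in knockdown library 1 (37.9 to 41.1 and 24.7 to 26.7 FPKM) or in knockdown library 2 (23.2 to 25.6 and 18.1 to 19.8 FPKM). In library 2 that gap is smaller than the SD of SPRY4 between the knockdown libraries, 10.7 FPKM.

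The 4 members summed to 75.7 and 53.3 FPKM in knockdown libraries 1 and 2, against 28.3 FPKM in the control, which is 2.68 and 1.88 times the control. SPRY4 made up 52.1% and 45.8% of that sum in the knockdown libraries and 18.0% in the control. SPRED2 made up 33.9% and 35.6% in the knockdown libraries and 54.6% in the control. The Sprouty members together were at 1.26 and 1.04 times the SPRED members in the knockdown libraries, against 0.325 times in the control. Nearly all of the higher Sprouty level was SPRY4, since SPRY2 stayed under 3 FPKM in every library.

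**Figure D3:**
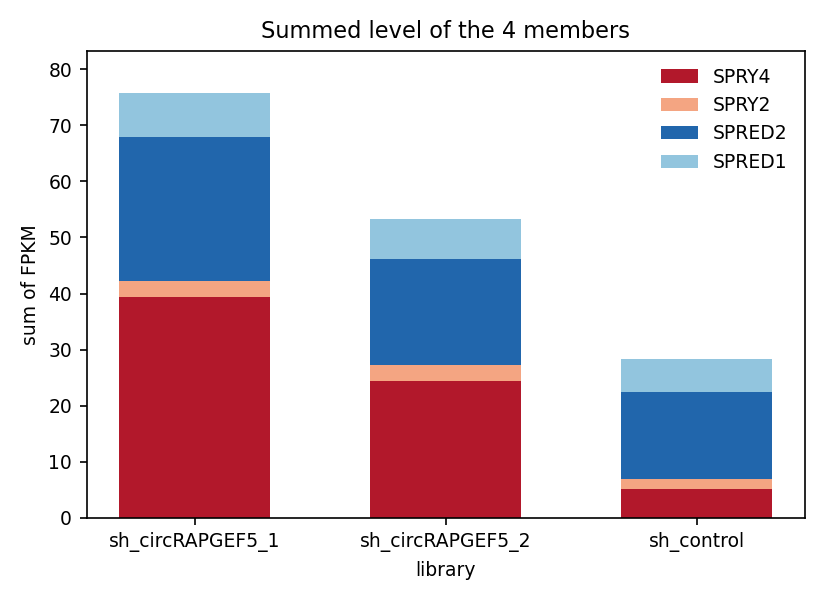
FPKM of SPRY4, SPRY2, SPRED2 and SPRED1 stacked to their sum in knockdown library 1 (75.7 FPKM), knockdown library 2 (53.3 FPKM) and the control library (28.3 FPKM). The SPRY4 block takes 52.1% and 45.8% of the knockdown bars and 18.0% of the control bar.

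The remaining genes of both families were barely expressed. SPRY1, a Sprouty inhibitor known for its role in kidney development in mice, was at 0.953 and 1.53 FPKM in knockdown libraries 1 and 2, against 0.514 FPKM in the control. The knockdown libraries were both above the control, from at least 47, 80 and 25 reads. The FPKM ratios to the control were 1.85 (95% interval 1.12 to 3.14) and 2.98 (1.88 to 4.87), and unlike SPRY4 the higher knockdown library was library 2. Its mean over the libraries, 0.999 FPKM, was just short of the minimum of 1 FPKM for testing. Without that minimum the mean log2 difference of SPRY1 was 0.55 ± 0.24 (SE; 95% interval -0.26 to 1.36), with a limma adjusted p of 0.733. That fit had 1.74 prior degrees of freedom, against 10.92 in the fit of the members, so the SEs are not comparable. SPRED3, the third SPRED gene, was at 2.02 and 0.591 FPKM in the knockdown libraries and 1.02 FPKM in the control. Knockdown library 1 was above the control and knockdown library 2 below it, with at least 58, 18 and 29 reads, and the limma adjusted p was 0.982. SPRY3 had a lower limit of 1, 0 and 1 reads in knockdown library 1, knockdown library 2 and the control, and no fold is given.

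Other transcriptional targets of ERK were compared as a list of 8 genes, of which 7 were tested. Higher in both knockdown libraries were 5 of them, lower in both was 1, and 1 differed in sign between the libraries, with a median mean log2 difference of 0.69. At least 2-fold higher in both were 3 of the 7, and 0 passed limma's adjusted threshold, while 3 had an unadjusted limma p under 0.05. Over all genes tested, 31.7% were higher in both, 1.21% at least 2-fold higher in both, and 7.07% had an unadjusted limma p under 0.05. The list was chosen with earlier results of these data known, so setting it beside all genes is description only. DUSP4, a nuclear MAPK phosphatase, was at 53.0 and 44.1 FPKM in the knockdown libraries and 9.93 FPKM in the control (limma adjusted p = 0.173). DUSP6, the cytoplasmic ERK phosphatase, was at 67.7 and 38.4 FPKM in the knockdown libraries and 17.3 FPKM in the control. EPHA2, an ephrin receptor, was at 51.9 and 69.1 FPKM in the knockdown libraries and 25.4 FPKM in the control. In SPRY4, DUSP4 and DUSP6 library 1 was the higher of the knockdown libraries, and in EPHA2 library 2 was.

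The other genes of that list lay nearer to the control or below it in at least 1 library, among them the ETS factors. ETV4 had log2 differences of 0.34 and 0.52, and ETV5 of 0.27 and -0.13, in knockdown libraries 1 and 2. CCND1, cyclin D1, lay well above the control in library 1, at 1.33, and close to it in library 2, at 0.05. PHLDA1 lay below the control in both, at -0.66 and -0.52. EPHA4, under the minimum for testing, was at 0.402 and 0.990 FPKM in the knockdown libraries and 1.07 FPKM in the control.

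Other inhibitors of RAS-ERK signalling were mixed in direction. The phosphatases DUSP4 and DUSP6 also belong to this class but were counted above, among the ERK targets. Of 13 genes tested, 3 were higher in both knockdown libraries, 5 lower in both and 5 on opposite sides, and 0 passed limma's adjusted threshold (2 had an unadjusted limma p under 0.05, against 7.07% of all genes). Higher in both were 31.7% of all genes tested. The median mean log2 difference was -0.14, and 0.02 with quantile normalization. DUSP5, an ERK phosphatase of the nucleus and itself an ERK target, was at 140.0 and 97.2 FPKM in the knockdown libraries and 38.2 FPKM in the control. ERRFI1, a feedback inhibitor of the EGF receptor, was at 126 and 68.9 FPKM in the knockdown libraries and 55.7 FPKM in the control. RASA3, a RAS GTPase-activating protein, had a mean log2 difference of 0.48. IL17RD, also called SEF, which blocks release of ERK from MEK, lay below the control at 1.04 and 2.59 FPKM in the knockdown libraries and 5.10 FPKM in the control. Neurofibromin, the partner of the SPRED proteins, had log2 differences of -0.10 in both knockdown libraries at the level of NF1 RNA. NF1 is counted as lower in both here and again in the list of binding partners below.

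**Figure D4:**
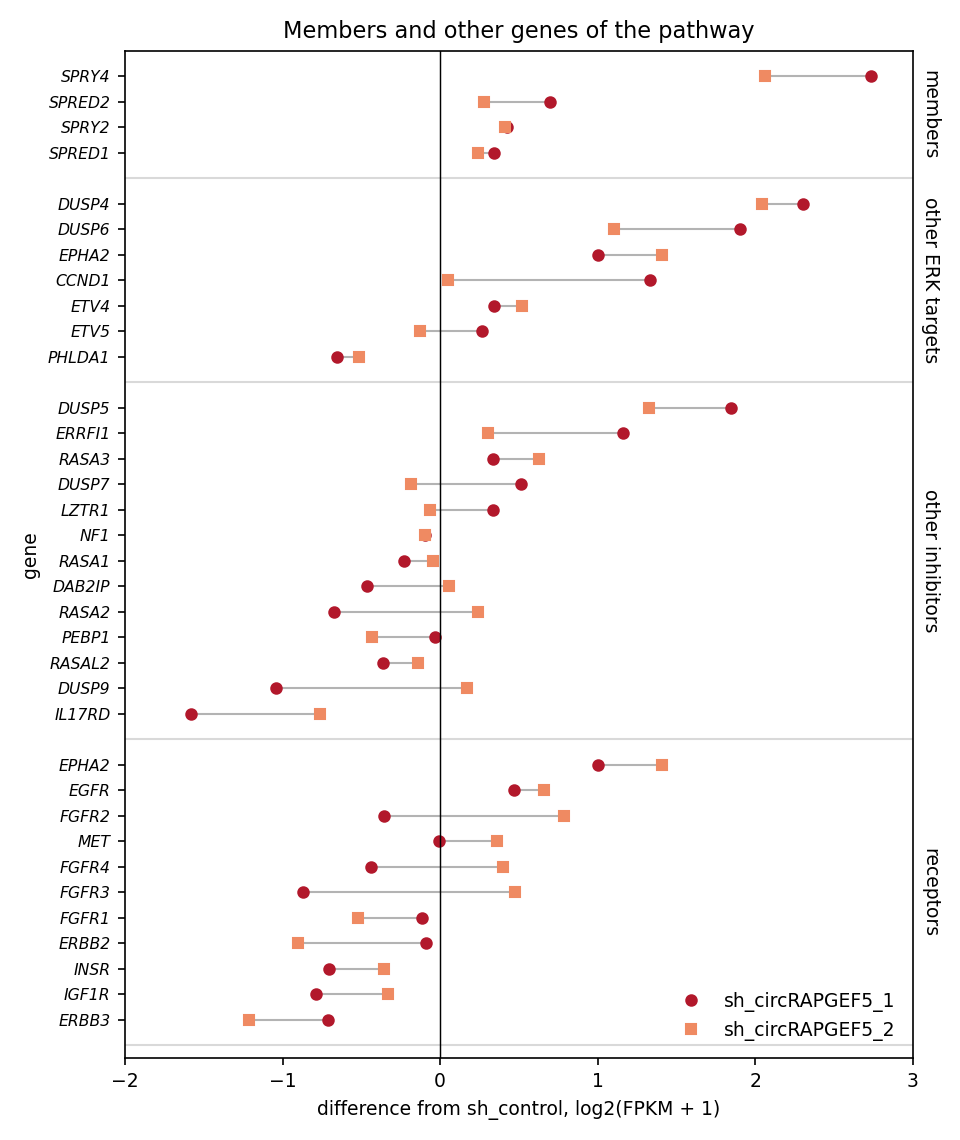
Difference from the control library in log2(FPKM + 1) for the members and 3 lists of pathway genes that passed the minimum of 1 FPKM, with circles for knockdown library 1 and squares for knockdown library 2; EPHA2 stands in 2 lists. SPRY4, DUSP4, DUSP5, DUSP6 and EPHA2 lie to the right of 1 in both libraries, while 5 of 13 other inhibitors and 5 of 11 receptors lie below 0 in both libraries.

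Genes for proteins that bind or regulate Sprouty and SPRED proteins were mixed. Of 21 genes listed, 20 were tested, with 7 higher in both knockdown libraries, 8 lower in both and 5 on opposite sides. The share higher in both was 7 of 20, near that of all genes. The median was 0.06 and turned to -0.002 without the filter on low values. The GTPases NRAS and HRAS were on the higher side, with mean log2 differences of 1.18 for NRAS and 0.75 for HRAS. FRS2, the docking protein of FGF receptors, was at 10.4 and 6.79 FPKM in the knockdown libraries and 3.94 FPKM in the control. CAV1, caveolin-1, lay below the control at 124 and 105 FPKM in the knockdown libraries and 219 FPKM in the control. GRB2, the adaptor that Sprouty proteins engage, chosen after its value was seen, had log2 differences of -1.03 and -0.33. None of the 20 passed limma's adjusted threshold, and 2 had an unadjusted limma p under 0.05, against 7.07% of all genes.

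Among 11 receptors listed upstream of Sprouty and SPRED, 2 were higher in both knockdown libraries, 5 lower in both and 4 on opposite sides. Of all genes tested, 31.7% were higher in both. EPHA2 is in this list and also among the ERK targets above. The list's median was -0.20, with the knockdown libraries on opposite sides at -0.36 and 0.36. EPHA2 and EGFR (17.5 and 20.1 FPKM in the knockdown libraries, 12.4 FPKM in the control) were the higher ones. ERBB3 was at 9.33 and 6.30 FPKM in the knockdown libraries and 15.9 FPKM in the control, and IGF1R had a mean log2 difference of -0.56. Again 0 passed limma's adjusted threshold, and 2 had an unadjusted limma p under 0.05, against 7.07% of all genes.

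The genes whose pair of differences lay nearest to that of each member were found by Euclidean distance over the 2 knockdown libraries. For SPRY4 these were ITGA2, a collagen-binding integrin subunit (distance 0.17), DUSP4 (0.43) and VGF, a secreted neuropeptide precursor (0.49). ITGA2 was at 44.4 and 28.7 FPKM in the knockdown libraries and 5.45 FPKM in the control, and VGF at 18.6 and 12.6 FPKM against 2.92 FPKM. The distances of SPRY4 were wide because few genes lie that far from the control. For SPRY2 the nearest were MRPS36, LRRC8B and TINAGL1, within 0.013. For SPRED1 they were PLEKHF1, F11R and COG8, within 0.019, and for SPRED2 ZNF696, PPP6C and MRPS17, within 0.017. With 3 libraries many genes have nearly the same pair, so nearness here describes values only.

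No member changed direction in any alternative that gave it a value. Only median-ratio rescaling and quantile normalization could have changed it. The other settings keep the sign of a gene that is above the control in both knockdown libraries. SPRY4 had log2 differences between 1.84 and 2.73 over 11 alternatives, with limma adjusted p from 0.114 to 0.924 in the 9 that allow a test. SPRY2 ranged from 0.19 to 0.67 over 10 alternatives, SPRED1 from 0.19 to 0.40 and SPRED2 from 0.28 to 0.70 over 11 each. No member passed the threshold in any of them.

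**Figure D5:**
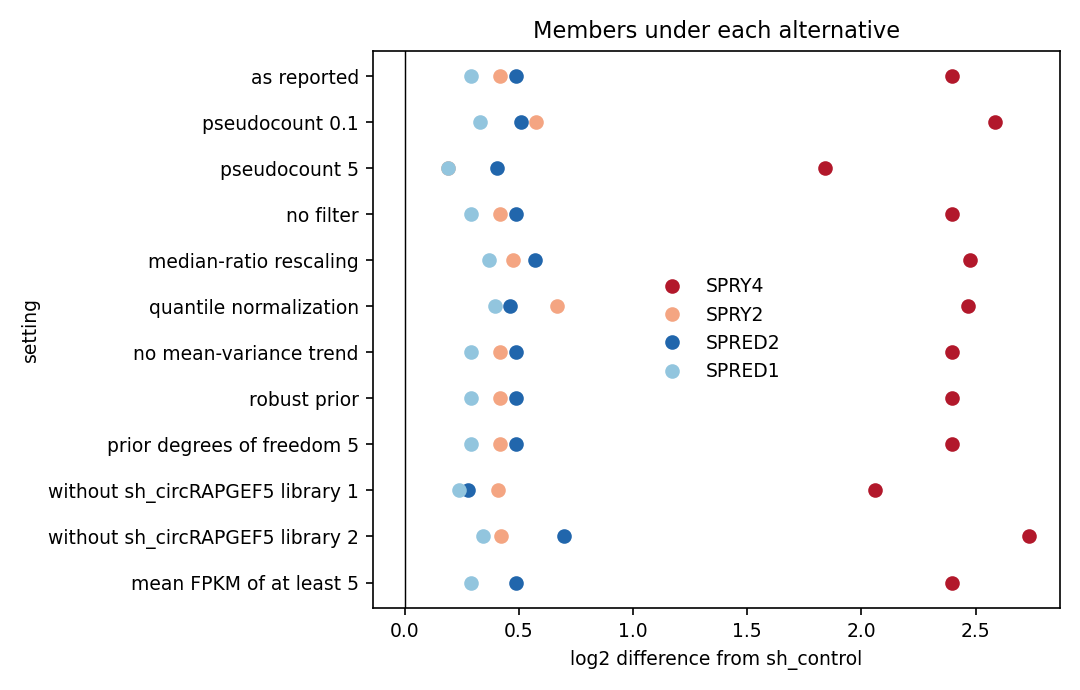
Log2 difference of the members from the control library as reported and under each alternative setting, each dot 1 member; SPRY2 has no dot with a mean FPKM of at least 5, which it does not reach. SPRY4 lies between 1.84 and 2.73 in every setting, and the other members lie between 0.19 and 0.70.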

How the data were processed

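The authors deposited 1 table of FPKM values for 15625 genes in 3 libraries, with symbols and GO terms. Per the labels' protocols, libraries were made with a stranded mRNA kit. The submitters' processing notes name Trimmomatic, HISAT2 and the build GRCh38.p13. Tool versions, the program that counted reads, whether it used strand, and the gene annotation were not given in the sources used here. FPKM already scales each library to its reads, so a shift of total RNA cannot be seen.

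From these values, log2(FPKM + 1) was tested for 11216 genes with a mean FPKM of at least 1. A two-sided limma test (version 3.58.1, R 4.3.3) was run with its trend option, with Benjamini-Hochberg adjustment over all genes and a threshold of 0.05. There is 1 residual degree of freedom, to which limma added 10.92 prior ones, and the lone control is assumed to vary like the knockdown libraries. The fit was tested on simulated data, where large changes were recovered and in most runs more genes were called falsely than the threshold allows. The simulated noise was drawn from limma's own fitted prior, so this recovery does not show that the prior holds with 1 control library. Reads were recovered from FPKM ratios within a relative tolerance of 1e-12, after 1 depth factor per library (1.01 and 1.07 in knockdown libraries 1 and 2 relative to the control).

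The members and gene lists were chosen with earlier results of these data known. Named genes are the members, the other family genes, the ERK targets and the 3 genes nearest to each member. Of each further list, up to 4 genes with the largest difference on 1 side of the control are named. Also named are RAPGEF5 as the host gene, NF1 as the SPRED partner, and marker genes. GRB2, RAPGEF1, FBLN1, LIF, ATF3 and DUSP1 were named after their values were seen. Gene positions are from GENCODE 29 and promoter sequences from RefSeq. Alternatives were other pseudocounts, filters, scalings and limma priors, and each knockdown library left out.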

Additional observations from a re-analysis of the deposited data

How the results depend on the processing

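SPRY4, SPRED1 and SPRED2 kept their direction in 11 alternatives each, and SPRY2 in 10. Only median-ratio rescaling and quantile normalization could have turned it. Other filters, limma priors and the trend option leave the difference as it was. Another pseudocount keeps the sign of a gene above the control in both knockdown libraries. Leaving a library out returns the difference of the other one, already positive in every member. No member passed the threshold in the alternatives with a test. SPRY2 has no value with a mean FPKM of at least 5. Without either knockdown library only a difference between 2 libraries remained, with no test. The count of genes called higher, 2, became 1 with a pseudocount of 5, with median-ratio rescaling, without the mean-variance trend and with a robust prior. It became 0 with no filter, with quantile normalization and with the prior set to 5 degrees of freedom. The 136 genes at least 2-fold higher in both libraries became 62 with a pseudocount of 5. The median of the other inhibitors turned to 0.019 with a mean FPKM of at least 5 and 0.015 with quantile normalization, and that of the binding partners to -0.00199 with no filter. With 1 knockdown library left out, the median of the other inhibitors was -0.097 or -0.045, against -0.136 with both. Other medians then ranged from -0.347 to 0.578 for SPRED3 as the single tested gene of the other family genes, -0.022 to 0.099 for the binding partners and -0.358 to 0.361 for the receptors, and -0.080 to 0.191 for the genes of the shared GO term. The cause of these shifts was not tested. No paired analysis was possible because the control has 1 library. Depth limits SPRY1, SPRED3 and SPRY3 most, whose lower limit of reads was at most 80 in any library.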

Other observations

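The GO annotation deposited with the table gives the 4 members 3 terms in common, of which "negative regulation of ERK1 and ERK2 cascade" is the most specific, shared by 65 genes of the table. This group was chosen after the data were seen. Of the 61 genes other than the members, 47 were tested, with 15 higher in both knockdown libraries, 13 lower in both and 19 on opposite sides. The share higher in both was 15 of 47, near the 31.7% of all genes tested. At least 2-fold higher in both were 2 of the 47, the phosphatases DUSP4 and DUSP6, against 1.21% of all genes tested. The median mean log2 difference was 0.002, with library medians of -0.080 and 0.191, so its sign turned with 1 knockdown library left out. RAPGEF1 and FBLN1 had the lowest mean log2 differences of the 47. RAPGEF1, an exchange factor for RAP GTPases, was at 2.93 and 8.02 FPKM in the knockdown libraries and 16.3 FPKM in the control. FBLN1, an extracellular matrix protein, was at 1.61 and 4.38 FPKM in the knockdown libraries and 7.87 FPKM in the control. None of the 47 passed limma's adjusted threshold, and 6 had an unadjusted limma p under 0.05, against 7.07% of all genes tested.

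Of other genes of the term, 3 were chosen after their values were seen. LIF, a cytokine of the interleukin-6 family, was at 17.9 and 24.4 FPKM in the knockdown libraries and 9.11 FPKM in the control. ATF3, a stress-induced transcription factor, was at 17.1 and 18.9 FPKM in the knockdown libraries and 8.97 FPKM in the control. DUSP1, a MAPK phosphatase of the same family as DUSP4 and DUSP6, was at 13.9 and 7.51 FPKM in the knockdown libraries and 14.2 FPKM in the control. These 3 genes did not pass limma's adjusted threshold either.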
